A study of Homo sapiens with 8 samples.

Results

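The genes described here are 35 markers of brain cell types, measured in ribosome pull-downs of a breast carcinoma line grown with and without astrocytes. They are 28 astrocyte markers, 3 markers each of oligodendrocytes (CLDN11, MBP and OLIG2) and microglia (LAPTM5, AIF1 and TYROBP), and the neuron marker MAP2, taken by gene symbol from a table of 57445 genes. All 35 were found, and 24 of them were among the 15806 genes with a mean of at least 10 reads over the libraries, which were tested. The question was whether these transcripts enter the pull-down from astrocytes or are already on the ribosomes of the carcinoma cells when these are grown alone.

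MDA231-BrM2 cells descend from the MDA-MB-231 breast carcinoma line and were selected to colonise the brain. Translating ribosome affinity purification (TRAP) uses a GFP tag on the ribosomes of the chosen cells, so that anti-GFP beads take polysomes of those cells from a mixed lysate. The 8 libraries form 4 groups of 2: control cells alone, control cells with astrocytes, and cells with hairpin 1 or hairpin 2 against Cx43 with astrocytes, where Cx43 is the connexin that GJA1 encodes and that joins cells through gap junctions. Control cells carried a control hairpin, labelled consh, and the cocultures held 1 astrocyte per carcinoma cell for 24 h. Cx43-depleted cells alone were not part of the design, and the species of the astrocytes is not given in the sources used here. With 2 libraries in a group, described by the series design as independent replicates, every p-value rests on little replication.

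Astrocytes are the glial cells that clear glutamate, buffer potassium and water, and feed neurons, and they are recognised by the filament protein GFAP together with transporters and membrane proteins that serve those tasks. Several of these genes are not confined to glia: carcinoma cells with mesenchymal or stem-like features can use VIM, NES, SOX2 and SOX9. A marker is most telling of a foreign cell when it is rare in the cells under study.

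Reads counted in genes ran from 38219702 to 48997555 per library, and levels are given as counts per 1000000 reads of the scaled library total (CPM). A floor of 3 reads corresponded to 0.0624 to 0.0805 CPM and, like the intervals below, covers counting error only. A list of 12 markers of carcinoma lines was also read, and all 12 passed the filter on low counts. Their summed level lay between 2944 and 3385 CPM in all 8 libraries. KRT18 was at 304 ± 13.3 CPM (SD, n = 2) and AXL, a large part of the sum, at 1483 ± 93.7 CPM in control cells alone. In the control coculture against control cells alone, 3 of the 12 were called higher and 1 lower, beside 8.74% and 2.93% of all tested genes. A steady sum does not show whether RNA of other cells is in the pull-downs. GJA1, the target of the hairpins and itself abundant in astrocytes, was at 51.1 and 46.3 CPM in control cells alone, 65.9 and 64.6 CPM in control cocultures, 27.8 CPM in each hairpin 1 library, and 31.7 and 33.8 CPM with hairpin 2. The depleted libraries lay below all control ones (-1.11 against the control coculture, adjusted p = 7.89e-06, and -0.69 against cells alone, adjusted p = 0.000366). Between the control groups, GJA1 rose with astrocytes present (0.42, SE 0.0717, adjusted p = 0.00665), a call that ended without control alone library 2 or control coculture library 1 (0.34 to 0.41, adjusted p = 0.0507 to 0.0616).

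Most of the 35 markers were already present when no astrocyte was in the dish. In control cells alone 7 markers had a mean over 10 CPM, 12 lay between 1 and 10 CPM, 9 were above the floor in at least 1 library but under 1 CPM, and 7 had no more than 3 reads in either library. Compared per kilobase of exon, the level in control cells alone was highest for the filament protein VIM, at 273 CPM per kb, followed by the lysosomal protein LAPTM5 at 25.6 and the glutamine synthetase GLUL at 19.2. On the same scale the stem cell factor SOX2 stood at 3.27, GFAP at 0.715, the neuronal microtubule protein MAP2 at 0.513 and the glutamate transporter SLC1A3 at 0.456. The water channel AQP4 stood at 0.0108 and the glutamate transporter SLC1A2, the main one of mature astrocytes, at 0.00729. The length used joins all annotated exons of a gene and can exceed that of a single transcript, so the order depends on it. In CPM, GFAP was not below SOX2 in control cells alone.

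**Figure D1:**
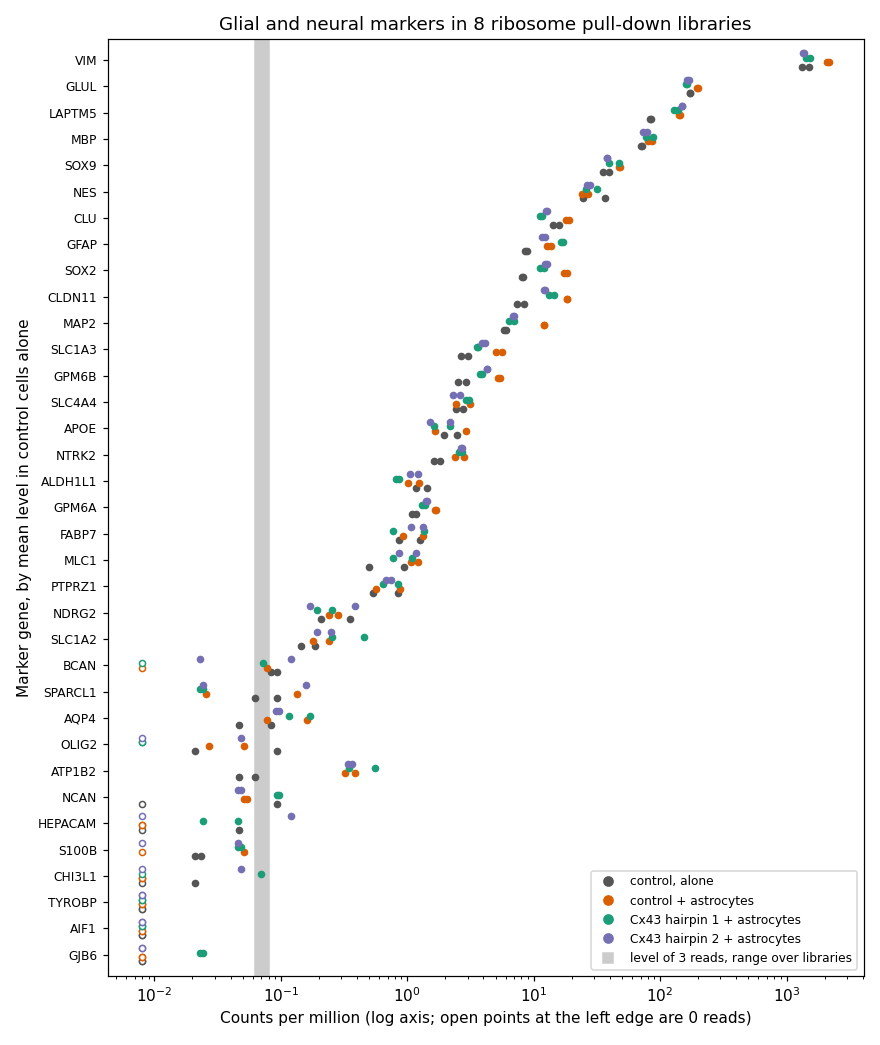
Level of each of the 35 markers in each of the 8 libraries (points, CPM on a log axis), ordered by the mean in control cells alone, with open points for 0 reads and a grey band for the level of 3 reads. Most markers have the libraries of control cells alone (dark points) well above the band, while the lowest markers scatter around or below it, and among these ATP1B2 stands clear of the band in all 6 cocultures and not in control cells alone.

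Of the 7 markers with no more than 3 reads in either library of control cells alone, ATP1B2 had 12 to 23 reads in each coculture library. The other 6 had 0 to 5 reads in every coculture library: the calcium-binding protein S100B, the astrocyte connexin GJB6, the secreted protein CHI3L1, the adhesion protein HEPACAM, and the microglial proteins AIF1 and TYROBP. These 6, with AQP4, the matrix proteoglycans BCAN and NCAN, the secreted protein SPARCL1 and the oligodendrocyte factor OLIG2, are the 11 members under a mean of 10 reads over all libraries. That mean includes the cocultures, so the low level of the 11 there follows from how they were set apart.

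AQP4, which forms the water channels of astrocyte endfeet, had 2 and 4 reads in control cells alone, 3 and 6 in control cocultures, 5 and 7 with hairpin 1, and 4 in each hairpin 2 library. The ratio of its reads, scaled for library totals, in all cocultures over control cells alone was 1.78 (exact 95% interval 0.726 to 5.25); the interval includes both a decrease and an increase, and neither was detectable at this depth. GJB6 had 0 reads in 6 libraries and 1 read in each hairpin 1 library. AIF1 and TYROBP, which mark microglia, had 0 reads in all 8 libraries, which allows a level of up to 0.0122 CPM over the 6 cocultures together. These counts describe the pull-downs and not the astrocytes, whose own RNA was not analysed here.

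Several other astrocyte markers with enough reads to be tested did not pass the test between control coculture and control cells alone. SLC1A2 had 8 and 7 reads in control cells alone and 7 and 9 in the control cocultures (log2 difference 0.34, SE 0.471, adjusted p = 0.695, edgeR quasi-likelihood test). Against control cells alone it was not called over both hairpins either. With hairpin 1 it differed by 1.09, at an unadjusted p under 0.05 but not called (adjusted p = 0.102). SLC1A2 passed the filter on low counts only through its coculture reads. ALDH1L1, a folate enzyme used to mark astrocytes in the whole brain, was at 1.43 and 1.16 CPM in control cells alone and at 1.23 and 1.02 CPM in the control cocultures (-0.20, SE 0.197, adjusted p = 0.565). FABP7, a fatty acid-binding protein of immature glia, and the phosphatase receptor PTPRZ1 differed by 0.07 each, and MLC1, a membrane protein of astrocyte endfeet, by 0.69 (SE 0.321, adjusted p = 0.211). The errors were wide for SLC1A2 and MLC1, so that these tests do not show the levels to be equal.

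Control cells with astrocytes were compared with control cells alone to ask which markers differed on the ribosomes when astrocytes were present. Of the 24 tested markers 11 were called higher, where 8.74% of all 15806 tested genes were, and 0 were called lower, where 2.93% of all were. ATP1B2 and SLC1A2 had a mean under 10 reads in control cells alone and entered the test only through the cocultures, and without these 2 the count was 10 of 22. With 1 library left out, the calls over all genes ranged from 613 to 1778 higher (1381 with all libraries) and from 90 to 804 lower (463). At an unadjusted p under 0.05 the counts were 15 and 0, and DESeq2 called 0 lower as well. Of the 28 astrocyte members DESeq2 called 7 higher, beside 8 with edgeR. The median log2 difference of the 24 was 0.46, beside -0.00 over all tested genes. In bulk RNA of this kind, a different number of contributing cells and a different amount of RNA per cell cannot be told apart. Of the 11 markers called higher, 10 were above the floor in both libraries of control cells alone.

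Among the filament genes, GFAP (ENSG00000131095.7) and VIM (ENSG00000026025.9) rose and NES did not pass the test. GFAP had 375 and 410 reads in control cells alone and 536 and 477 in the control cocultures, or 8.79 and 8.52 CPM against 13.8 and 12.8 CPM. Both coculture libraries lay above both libraries of cells alone, a 1.54-fold higher level (log2 0.62, SE 0.081, adjusted p = 0.00166). VIM was at 1504 and 1317 CPM alone and at 2174 and 2094 CPM in coculture (0.60, SE 0.0819, adjusted p = 0.00215). NES, a filament of neural stem cells, was at 36.5 and 24.5 CPM alone and 27.1 and 24.0 CPM in coculture, and these values overlapped (-0.25, adjusted p = 0.385).

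The transcription factors SOX2 (ENSG00000181449.2) and SOX9 (ENSG00000125398.5), which keep neural progenitors undifferentiated and direct glial fate, were both called higher. SOX2 was at 8.30 and 8.15 CPM in control cells alone and at 17.5 and 18.3 CPM in the control cocultures. The libraries did not overlap, with a 2.18-fold higher level in coculture (log2 1.12, SE 0.0807, adjusted p = 4.18e-05). SOX9 moved less, from 39.5 and 35.6 CPM to 48.1 and 47.4 CPM (0.35, SE 0.093, adjusted p = 0.0455). The SOX9 call ended without any single library of control cells alone, of the control coculture or of hairpin 2 (0.26 to 0.41, adjusted p = 0.0943 to 0.229).

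Transporters and pumps held the largest relative difference and the only rise from the floor. ATP1B2 (ENSG00000129244.4), a sodium pump subunit that also acts in the adhesion of glia to neurons, had 2 and 3 reads in control cells alone and 15 and 12 in the control cocultures. With the hairpins it had 15 and 23 reads and 14 and 16 reads, so every coculture library lay above every library of cells alone. The ratio of reads scaled for library totals was 6.43 for the control coculture (exact 95% interval 2.44 to 21.4) and 6.999 over all 6 cocultures (2.90 to 22.1). The test gave an adjusted p of 0.0105, which became 0.0586 to 0.0698 when either library of cells alone, or control coculture library 1, was left out. ATP1B2 passed the filter on low counts only through its reads in the cocultures, so that among tested genes it had to differ, and its fitted log2 difference of 2.62 depends on the handling of low counts. In a fit of control cells alone and control cocultures only, it fell under that filter and was not tested.

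SLC1A3 (ENSG00000079215.9), the glutamate transporter that astrocytes share with radial glia, had 114 and 146 reads in control cells alone and 195 and 209 in the control cocultures. Its level went from 2.67 and 3.03 CPM to 5.01 and 5.61 CPM without overlap (1.85-fold, log2 0.89, SE 0.121, adjusted p = 0.00203). The bicarbonate transporter SLC4A4 overlapped between the groups (0.12, adjusted p = 0.675).

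Among membrane proteins and receptors, GPM6B and NTRK2 were called higher. GPM6B (ENSG00000046653.10), a proteolipid protein of glia and neurons, was at 2.51 and 2.93 CPM in control cells alone and at 5.40 and 5.26 CPM in the control cocultures (0.97, SE 0.117, adjusted p = 0.00106). Its relative GPM6A was at 1.17 and 1.08 CPM alone and at 1.64 and 1.69 CPM in coculture, apart but short of the threshold (0.57, adjusted p = 0.0529). NTRK2 (ENSG00000148053.11), the receptor of brain-derived neurotrophic factor, went from 1.62 and 1.81 CPM to 2.80 and 2.39 CPM (0.60, SE 0.148, adjusted p = 0.0338). Its call ended without any single library of control cells alone, the control coculture or hairpin 2 (0.48 to 0.69, adjusted p = 0.0591 to 0.225). It also ended with DESeq2 and in a fit of the compared groups alone.

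The secreted and cytosolic markers did not pass. CLU, a chaperone secreted by astrocytes and many epithelial cells, was at 15.8 and 14.3 CPM alone and at 17.9 and 18.9 CPM in coculture (0.28, SE 0.0803, adjusted p = 0.0543). GLUL, which makes glutamine from glutamate, was at 173 and 174 CPM alone and at 199 and 196 CPM in coculture (0.19, SE 0.059, adjusted p = 0.0793). For both the libraries of the groups did not overlap. The lipid carrier APOE (0.04) and the cytosolic protein NDRG2 (-0.07) had overlapping values.

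The markers of the other neural cell types included the largest increase among members well above the floor. CLDN11 (ENSG00000013297.6), the tight junction protein of myelin, had 355 reads in each library of control cells alone and 713 and 686 in the control cocultures. Its level of 8.32 and 7.38 CPM alone became 18.3 and 18.4 CPM, 2.34-fold higher (log2 1.23, SE 0.09, adjusted p = 4.79e-05). MBP, whose locus also encodes Golli proteins made outside the nervous system, was at 71.3 and 70.3 CPM alone and at 86.4 and 79.8 CPM in coculture (0.23, adjusted p = 0.0982).

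MAP2 (ENSG00000078018.15), a microtubule protein of dendrites, had 258 and 280 reads in control cells alone and 467 and 448 in the control cocultures. That is 6.05 and 5.82 CPM against 12.001 and 12.02 CPM in coculture, 2.02-fold higher (log2 1.02, SE 0.09, adjusted p = 0.000164). LAPTM5 (ENSG00000162511.7), a lysosomal membrane protein of blood cells and microglia, was at 84.6 and 83.0 CPM alone and at 141 and 144 CPM in coculture (0.77, SE 0.0657, adjusted p = 0.000133). GFAP, VIM, SOX2, SLC1A3, GPM6B, CLDN11, LAPTM5 and MAP2 kept their calls in this comparison without each library in turn.

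**Figure D2:**
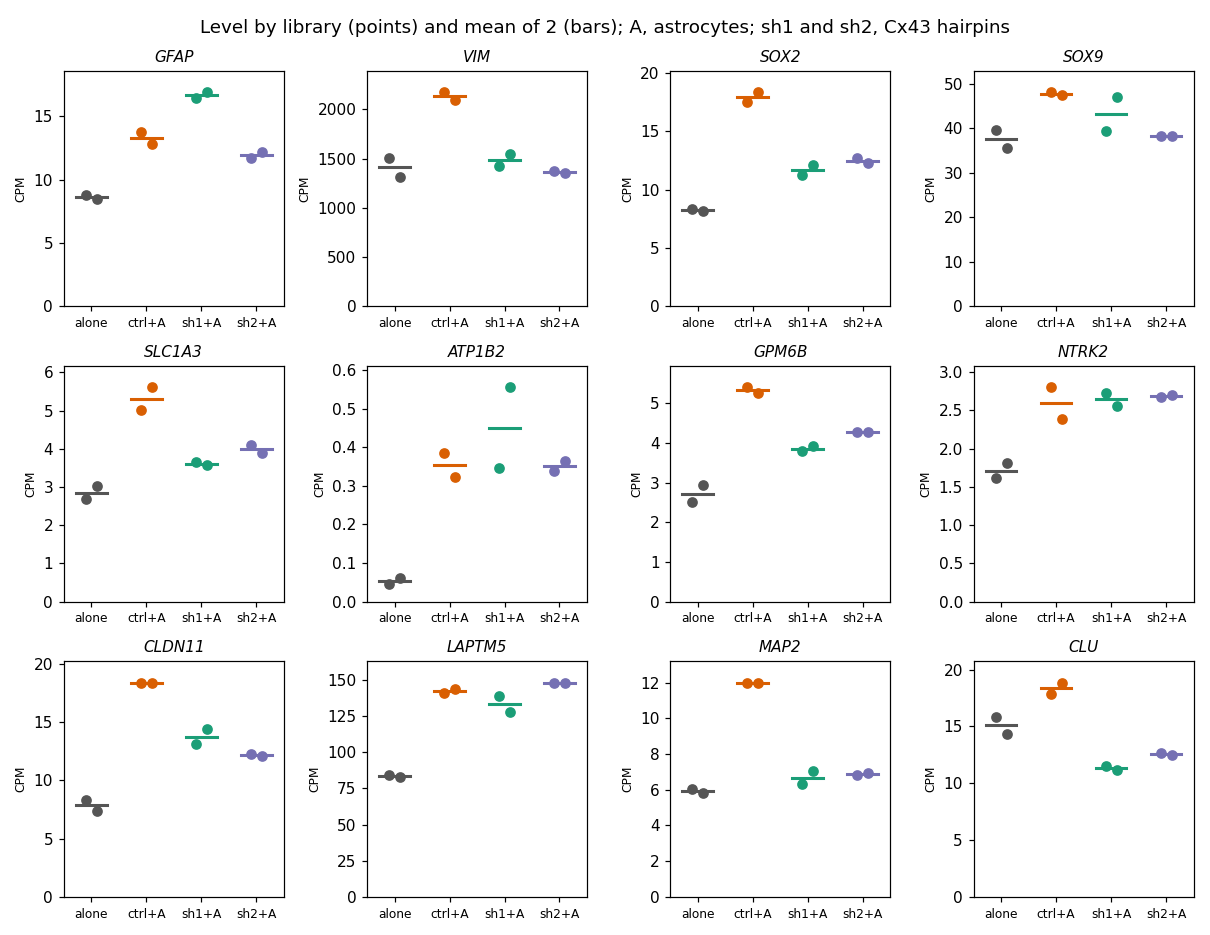
CPM in each library (points) and the mean of each group of 2 (bars) for 12 of the markers, on linear axes from 0, with control cells alone, control cells with astrocytes (ctrl+A) and cells with Cx43 hairpin 1 or 2 with astrocytes (sh1+A, sh2+A). SOX2, CLDN11 and MAP2 are highest in the control coculture, GFAP and LAPTM5 stay above control cells alone in all cocultures, and CLU is lowest with the hairpins.

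The start regions of the 6 genes that rose in the control coculture and were lower in the depleted cocultures are shown, the latter comparison given further on, to set their letters side by side. Each is the 250 bases before the first start listed for the gene by RefSeq in GRCh38.p14, a choice of start made after the motif matches were seen, and it is read on the plus strand except for GPM6B, on the minus strand. Capitals mark a match to GAS (TTCNNNGAA), a site of interferon-activated STAT factors. The windows are SOX2 at chr3:181711675-181711924, CLDN11 at chr3:170418618-170418867, SLC1A3 at chr5:36596338-36596587, MAP2 at chr2:209661246-209661495, VIM at chr10:17227991-17228240 and GPM6B at chrX:13938639-13938888.
SOX2: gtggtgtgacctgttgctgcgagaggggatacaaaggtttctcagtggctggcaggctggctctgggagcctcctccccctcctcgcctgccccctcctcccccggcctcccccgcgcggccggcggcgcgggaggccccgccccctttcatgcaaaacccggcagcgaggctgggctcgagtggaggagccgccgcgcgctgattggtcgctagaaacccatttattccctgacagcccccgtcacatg
CLDN11: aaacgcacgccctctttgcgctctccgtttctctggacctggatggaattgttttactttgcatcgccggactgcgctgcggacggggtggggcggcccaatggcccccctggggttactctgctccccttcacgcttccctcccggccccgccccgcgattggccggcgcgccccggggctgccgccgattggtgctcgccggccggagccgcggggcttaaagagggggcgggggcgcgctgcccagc
SLC1A3: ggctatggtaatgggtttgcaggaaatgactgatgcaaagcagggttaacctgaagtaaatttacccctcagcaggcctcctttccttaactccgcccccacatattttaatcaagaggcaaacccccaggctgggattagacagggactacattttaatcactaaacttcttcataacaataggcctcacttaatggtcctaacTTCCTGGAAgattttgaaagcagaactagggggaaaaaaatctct
MAP2: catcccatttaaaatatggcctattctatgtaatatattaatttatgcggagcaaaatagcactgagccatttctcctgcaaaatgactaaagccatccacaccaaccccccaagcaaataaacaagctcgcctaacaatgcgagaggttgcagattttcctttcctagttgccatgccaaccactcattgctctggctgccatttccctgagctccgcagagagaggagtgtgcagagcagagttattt
VIM: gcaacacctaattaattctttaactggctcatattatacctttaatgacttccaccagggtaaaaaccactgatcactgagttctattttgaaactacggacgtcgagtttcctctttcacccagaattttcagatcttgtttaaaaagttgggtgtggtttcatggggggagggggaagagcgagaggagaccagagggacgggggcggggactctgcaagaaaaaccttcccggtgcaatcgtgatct
GPM6B: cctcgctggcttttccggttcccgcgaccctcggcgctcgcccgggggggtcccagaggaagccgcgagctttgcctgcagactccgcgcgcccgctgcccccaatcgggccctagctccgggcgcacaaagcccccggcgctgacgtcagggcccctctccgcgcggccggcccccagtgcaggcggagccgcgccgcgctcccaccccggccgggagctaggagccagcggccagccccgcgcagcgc
The match in SLC1A3 begins 45 bases before the start, and the other 5 windows shown hold neither motif searched. Among the other starts of these genes, start 2 of CLDN11 holds a GAS match and start 3 of MAP2 a match to the interferon-stimulated response element described next. Over windows that also hold the 50 bases after each start, searched on both strands, GAS was found in 6 of 57 windows of 28 members and in 7.66% of all 35116 windows. The core of the interferon-stimulated response element (GAAANNGAA) was found in 8 of the 57 and in 8.11% of all, among them start 1 of NTRK2. The motifs can overlap each other. A match is a string of letters and no evidence that a factor binds there.

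The depleted cocultures of both hairpins were set against the control coculture, with astrocytes present in both arms, to ask which markers differed with Cx43 in the carcinoma cells. Of the 24 tested markers 8 were called lower, where 5.85% of all tested genes were, and 0 were called higher, where 3.37% of all were. At an unadjusted p under 0.05 the counts were 9 and 0, and DESeq2 called 0 higher as well. The median log2 difference was -0.22, beside -0.01 over all tested genes. With 1 library left out, the calls over all genes ranged from 302 to 1294 lower (924 with all libraries) and from 41 to 1020 higher (533). The 8 were MAP2, CLU, VIM, SOX2, CLDN11, SLC1A3, GPM6B and GLUL. This comparison shares the control coculture with the previous one, so a high value there lowers the difference here and the directions are not independent.

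MAP2 was at 6.33 and 7.05 CPM with hairpin 1 and at 6.82 and 6.93 CPM with hairpin 2, all below the 12.001 and 12.02 CPM of the control coculture libraries. Its log2 difference from the control coculture was -0.82 (SE 0.0755, adjusted p = 0.000291), a 1.77-fold lower level. SOX2 was at 11.2 and 12.1 CPM with hairpin 1 and at 12.7 and 12.3 CPM with hairpin 2 (-0.57, SE 0.0668, adjusted p = 0.00144). These SOX2 values lay between those of control cells alone and those of the control coculture without overlapping either.

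CLDN11 was at 13.1 and 14.4 CPM with hairpin 1 and at 12.3 and 12.1 CPM with hairpin 2 (-0.50, SE 0.074, adjusted p = 0.00487), also between the control groups. VIM was at 1429 and 1547 CPM and at 1373 and 1355 CPM (-0.58, SE 0.0693, adjusted p = 0.00155), within or near the range of control cells alone. CLU was at 11.5 and 11.1 CPM and at 12.7 and 12.5 CPM (-0.62, SE 0.0695, adjusted p = 0.00115), below both control groups.

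SLC1A3 (-0.48, adjusted p = 0.0222), GPM6B (-0.39, adjusted p = 0.039) and GLUL (-0.26, adjusted p = 0.0169) were the smaller decreases. SLC1A3 was at 3.65 and 3.57 CPM with hairpin 1 and at 4.10 and 3.89 CPM with hairpin 2. Calls for SLC1A3 (-0.56 to -0.39, adjusted p = 0.0662 to 0.203) and GLUL (-0.27 to -0.25, adjusted p = 0.0754 to 0.114) ended without either control coculture library or either hairpin 2 library, which left 5 of the 8. The GPM6B call ended without any single coculture library (-0.41 to -0.37, adjusted p = 0.0536 to 0.188), and also with DESeq2.

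GFAP, LAPTM5, NTRK2, ATP1B2 and SOX9 had risen in the control coculture and were not called lower over both hairpins. SOX9 leaned lower (-0.23, adjusted p = 0.11), with an unadjusted p under 0.05, and by -0.32 with hairpin 2 (adjusted p = 0.101). GFAP was at 16.5 and 16.9 CPM with hairpin 1 and at 11.7 and 12.2 CPM with hairpin 2, on either side of the 13.8 and 12.8 CPM of the control coculture (0.09 over both hairpins, SE 0.0684, adjusted p = 0.464). LAPTM5 was at 139 and 128 CPM with hairpin 1 and at 148 CPM in both hairpin 2 libraries (-0.02, SE 0.0564, adjusted p = 0.865). NTRK2 differed by 0.04 (SE 0.122) and ATP1B2 by 0.16 (SE 0.287). That these genes differ from SOX2 or MAP2 in their response to depletion was not tested.

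Taken by hairpin, 8 of the 24 were called lower with hairpin 1 (4.73% of all tested genes) and 1 higher (3.09%), and 5 were called lower with hairpin 2 (3.2%) and 0 higher (0.962%), the latter also 0 at an unadjusted p under 0.05 and by DESeq2. The 5 of hairpin 2, MAP2, SOX2, CLU, VIM and CLDN11, were among the 8 of hairpin 1, which shares its control. MAP2 differed by -0.84 and -0.80 with hairpins 1 and 2, SOX2 by -0.62 and -0.52, CLU by -0.70 and -0.55, VIM by -0.52 and -0.65, and CLDN11 by -0.42 and -0.59. The count for hairpin 1 was 3 and 4 without library 1 and 2 of the control coculture, 5 without hairpin 1 library 2 and 4 without either hairpin 2 library, and that for hairpin 2 was 3 without control coculture library 2 and 1 without either hairpin 2 library. MAP2, SOX2 and CLU with hairpin 1, and MAP2 with hairpin 2, kept their calls without each library.

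The marker called higher with hairpin 1 was GFAP (0.33, SE 0.0779, adjusted p = 0.0397), and this call ended without any single library other than library 1 of hairpin 1 (0.28 to 0.38, adjusted p = 0.0574 to 0.222). With hairpin 2 the GFAP difference was -0.15 (SE 0.0794, adjusted p = 0.347). Set against each other directly, hairpin 2 minus hairpin 1 gave 0 markers called higher, where 0.0253% of all tested genes were, and 0 called lower, where 0.00633% of all were. At an unadjusted p under 0.05 there was 1 in each direction, LAPTM5 higher (0.15, adjusted p = 0.705) and GFAP lower (-0.48, SE 0.0779, adjusted p = 0.216). GFAP passed with DESeq2 (adjusted p = 0.0494) and without the filter on low counts (adjusted p = 0.00425), the 2 settings of 14 in which it did. Without the filter the calls over all genes were 278 higher and 26 lower, beside 4 and 1 with it. GJA1 itself was not called between the hairpins (0.24, SE 0.0738, adjusted p = 0.705).

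**Figure D3:**
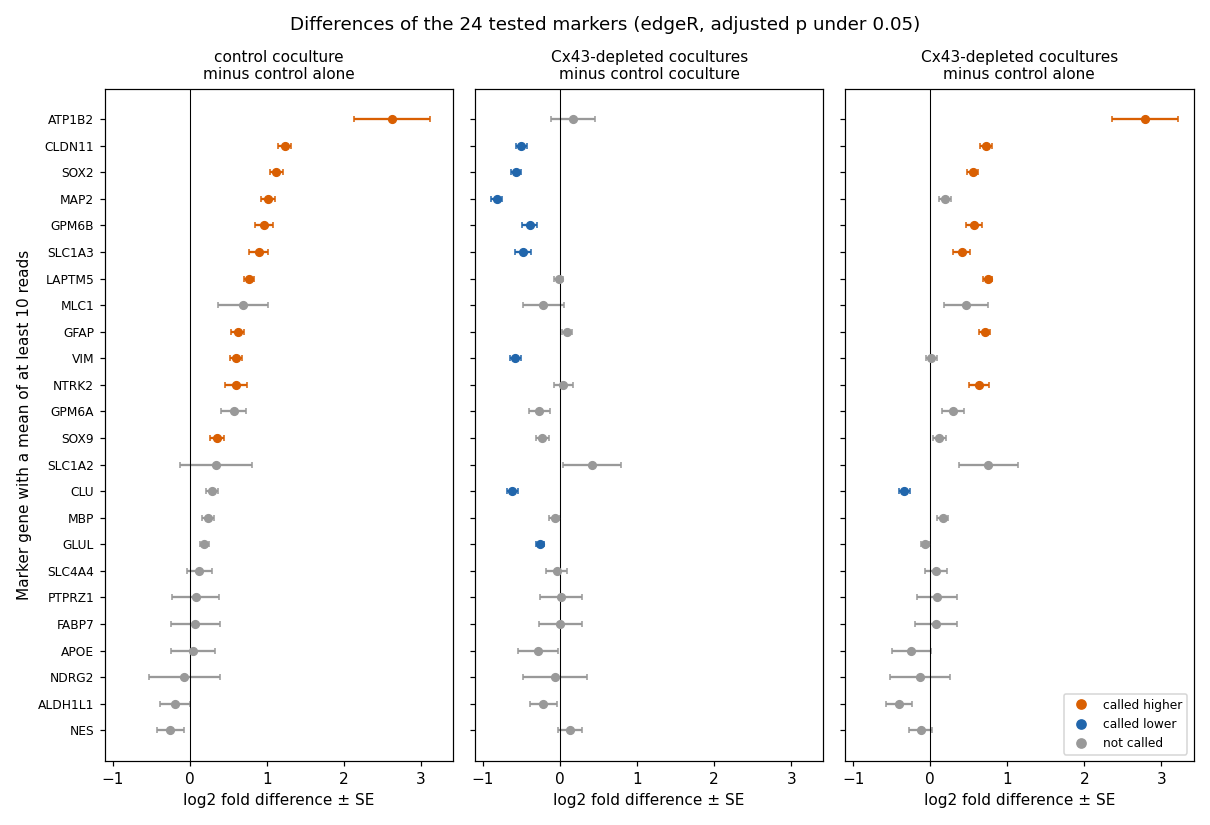
Log2 fold difference ± SE of the 24 tested markers in 3 comparisons, ordered by the difference between control coculture and control cells alone, with points coloured where the adjusted p (edgeR) was under 0.05. In the left panel 11 markers are called higher, in the middle panel 8 are called lower, and in the right panel 8 are called higher and CLU lower.

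Depleted cocultures were also set against control cells alone, where the hairpins and the presence of astrocytes cannot be told apart. Here 8 of the 24 markers were called higher, where 10.8% of all tested genes were, and 1 was called lower, where 6.34% of all were. The median was 0.18, beside -0.00 over all tested genes. Without ATP1B2 and SLC1A2 the counts were 7 and 1 of 22. With 1 library left out, the calls over all genes ranged from 376 to 2588 higher (1707 with all libraries) and from 155 to 2129 lower (1002). The 8 were ATP1B2, LAPTM5 (0.75), CLDN11 (0.72), GFAP (0.71), NTRK2 (0.63), GPM6B (0.57), SOX2 (0.55) and SLC1A3 (0.41), all of them also called higher in the control coculture, which was set against the same control cells. CLU was the marker called lower (-0.34, SE 0.07, adjusted p = 0.0151). VIM (0.01, adjusted p = 0.906) and MAP2 (0.19, SE 0.0811, adjusted p = 0.129) did not pass, although all 4 depleted libraries of MAP2 lay above both libraries of cells alone.

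The count of 8 was 4 without library 1 of control cells alone, where SLC1A3, GPM6B (0.45, adjusted p = 0.0862), NTRK2 and ATP1B2 (adjusted p = 0.0523) lost their calls. SLC1A3 also lost it without library 2 of control cells alone, hairpin 1 library 2 or either hairpin 2 library (0.31 to 0.50 over all of these, adjusted p = 0.0595 to 0.209). With DESeq2, SLC1A3 was not called here either, and ATP1B2 had no adjusted p and so no call. DESeq2 thus called 4 astrocyte members higher, beside 6 with edgeR. NTRK2 also lost it without library 2 of control cells alone or of hairpin 2 (0.55 to 0.71, adjusted p = 0.0551 to 0.102), and CLU lost its call without library 1 of control cells alone or either hairpin 2 library (-0.34 to -0.28, adjusted p = 0.0526 to 0.117).

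The 17 astrocyte members with the narrower tissue range, GFAP and SOX2 among them, can be read as a sum. In control cells alone they added up to 29.7 and 29.4 CPM, with 51.1 and 50.8 CPM in control cocultures, 44.1 and 45.0 CPM with hairpin 1 and 41.8 and 41.6 CPM with hairpin 2. All 6 coculture libraries lay above both libraries of cells alone, and the control cocultures lay above the depleted ones. Without GFAP and SOX2, which make up more than the rest together, the sum was 12.6 and 12.7 CPM alone, 19.9 and 19.7 CPM in control cocultures, and 15.9 to 17.4 CPM in the depleted ones. Of the 12 tested among these 17 markers, 6 were called higher in the control coculture, beside 8.74% of all tested genes, and 6 were not called. ATP1B2, one of the 6 called, entered the test only through its coculture reads. The other 5, AQP4, GJB6, BCAN, NCAN and HEPACAM, were under the filter, with 0 to 7 reads in every library, and none of the 17 was at 0 in all 8. A second list, of 17 further astrocyte markers, had overlapping sums. They were 134 and 107 CPM in control cells alone, 134 and 130 CPM in control cocultures, and 127 to 141 CPM in the depleted ones. The part of astrocyte RNA in these sums was not tested.

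Further markers of the same cell types, from lists that hold no member, were counted in the same way. Of 17 further astrocyte markers 10 were tested and 1, the endothelin receptor EDNRB, was called higher in the control coculture, beside 8.74% of all tested genes (0.74, adjusted p = 0.00547, and 0.69 with adjusted p = 0.0502 without library 2 of control cells alone). At an unadjusted p under 0.05 there were 5 higher and 1 lower. None of these 10 was called in the depleted against the control cocultures, beside 3.37% of all tested genes higher and 5.85% lower. At an unadjusted p under 0.05 there were 1 higher and 2 lower, and by DESeq2 0 higher and 0 lower. Against control cells alone, 4 of the 10 were higher in the depleted cocultures, beside 10.8% of all tested genes, and 3 by DESeq2: the glial transcription factors NFIB (0.49, adjusted p = 0.0114) and NFIA (0.34, adjusted p = 0.0184), the thyroid hormone deiodinase DIO2 (0.84, adjusted p = 0.0201) and EDNRB (0.38, adjusted p = 0.0424). The NFIB call ended without either library of cells alone or hairpin 2 library 2 (adjusted p = 0.0534 to 0.0945). Those of NFIA (adjusted p = 0.0508 to 0.144) and DIO2 (adjusted p = 0.0526 to 0.137) ended without either library of cells alone or either of hairpin 2, and that of EDNRB without any single library but hairpin 1 library 2 (adjusted p = 0.0579 to 0.23).

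Of 12 further oligodendrocyte markers 6 were tested and CNP (0.51, adjusted p = 0.00919) and PDGFRA (1.00, adjusted p = 0.0238) were called higher in the control coculture, beside 8.74% of all tested genes, and CNP was lower with the hairpins (-0.49, adjusted p = 0.00768), beside 5.85% of all. The proteoglycan CSPG4 was lower in the depleted cocultures than in control cells alone (-0.84, adjusted p = 0.0129), not so without library 1 of cells alone or hairpin 2 library 2 (adjusted p = 0.0569 to 0.058). The CNP rise ended without either library of cells alone or control coculture library 1 (adjusted p = 0.0507 to 0.0688), the CNP fall without that coculture library (-0.40, adjusted p = 0.0698). The PDGFRA rise ended without library 2 of control cells alone and without any library of the control coculture or hairpin 2 (adjusted p = 0.0525 to 0.132). Of 13 further neuron markers 7 were tested. In the control coculture 0 were called higher or lower, beside 8.74% and 2.93% of all tested genes. At an unadjusted p under 0.05 there were 1 higher and 0 lower, and by DESeq2 0 higher and 0 lower. In the depleted cocultures 0 of these 7 were called against either control group. Of all tested genes, 3.37% were higher and 5.85% lower against the control coculture, and 10.8% and 6.34% against control cells alone. At an unadjusted p under 0.05 there were 0 higher and 1 lower in each comparison, and 0 in both by DESeq2.

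Among microglia and macrophage markers, some rose in the control coculture and others stayed at or under 3 reads. Of 15 further markers 8 never had more than 3 reads in any library, with the complement genes C1QA and C1QB at 0 in all 8, and 5 were tested. Of these 5, 4 were called higher in the control coculture, beside 8.74% of all tested genes: the lipopolysaccharide co-receptor CD14 (1.34, adjusted p = 0.00701), the growth factor receptor CSF1R (1.16, adjusted p = 0.00852), the lysosomal protein CD68 (0.61, adjusted p = 0.0393) and the MHC class II chaperone CD74 (0.58, adjusted p = 0.00335). CD14 had 28 and 36 reads in control cells alone and 57 and 79 in control cocultures, and CSF1R had 27 and 32 against 62 and 49. The fifth, TMEM119, had 5 and 2 reads in control cells alone and 16 and 4 in control cocultures, and was not called (1.73, SE 0.722, adjusted p = 0.165). DESeq2 called 3 of the 5 higher in this comparison, and CD68 was not among them. CD74 kept its call without each library. The CD14 call ended without library 1 of control cells alone (adjusted p = 0.0606), that of CSF1R without either library of cells alone or control coculture library 1 (adjusted p = 0.0502 to 0.0727), and that of CD68 without any library of those groups or of hairpin 2 (adjusted p = 0.0627 to 0.193). CD68 (-0.84, adjusted p = 0.00841) and CD74 (-0.47, adjusted p = 0.00656) were lower in the depleted than in the control cocultures, beside 5.85% of all tested genes, CD68 not without either control coculture library (adjusted p = 0.0515 to 0.0832) and CD74 not without library 2 of them (-0.37, adjusted p = 0.0935). Against control cells alone, 3 of the 5 were higher in the depleted cocultures, beside 10.8% of all: CD14 (1.06, adjusted p = 0.0117), CSF1R (0.94, adjusted p = 0.0121) and TMEM119 (2.22, adjusted p = 0.0349), which had 16 and 17 reads with hairpin 1 and 17 and 13 with hairpin 2. DESeq2 called 2 of the 5 higher here, and TMEM119 entered the test only through its coculture reads. These calls ended without either library of cells alone (CD14, adjusted p = 0.0693 to 0.0999), without these or hairpin 2 library 2 (CSF1R, adjusted p = 0.053 to 0.0871), and without these, hairpin 1 library 2 or either hairpin 2 library (TMEM119, adjusted p = 0.0511 to 0.223).

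**Figure D4:**
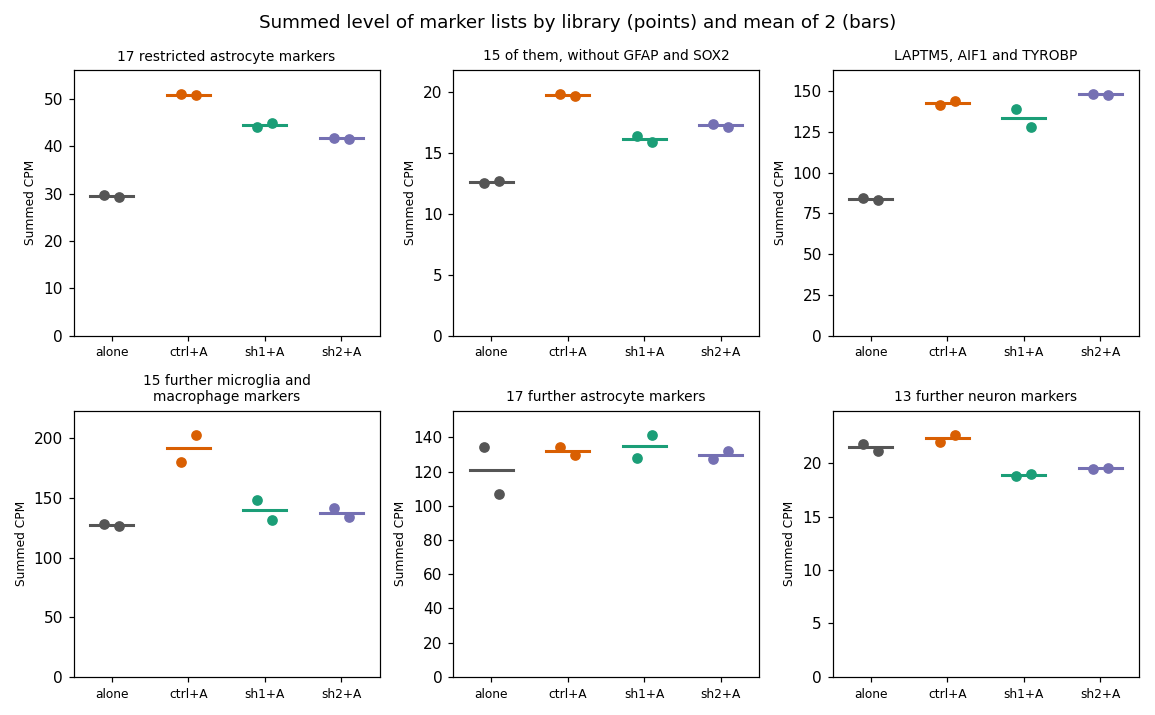
Summed CPM of 6 groups of markers in each library (points) with the mean of each group of 2 (bars), on linear axes from 0. The 17 narrower astrocyte markers are higher in all cocultures than in control cells alone, and so are 15 of them without GFAP and SOX2. The sums of the 17 further astrocyte markers overlap between the groups. The microglia members follow LAPTM5 because AIF1 and TYROBP are at 0.

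Exons shared with other genes limit some of these values, since the strand setting of the counting is not given in the sources used here. By the GENCODE 29 annotation 18.4% of GFAP exon length overlaps CCDC103 and FAM187A on the opposite strand, which had 0 to 5 and 0 reads per library. For VIM 12.4% overlaps VIM-AS1, which had 139 to 263 reads, and for HEPACAM 37.5% overlaps HEPN1, which had 0. For CLDN11 18.3% overlaps AC026316.5 on the same strand.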

How the data were processed

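RNA of 8 anti-GFP ribosome pull-downs, 2 libraries in each of 4 groups, was sequenced. The authors deposited 1 table of read counts per gene. TopHat2, HTSeq, DESeq2 and the hg19 build are named per the submitters' processing notes, and the annotation, counting mode and strand are not given in the sources used here. The table's name calls the values normalized, but they are whole numbers with different totals per library and were treated as raw counts. Its 5 counter rows were left out (reads without a unique place were 14.2% to 26.1% of the reads, highest in control coculture library 1). The libraries of a group differed by more than counting error (chi-square per degree of freedom at least 4.22) and were kept as separate samples.

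Genes with a mean of at least 10 reads were tested with edgeR 4.0.16 in R 4.3.3 (limma 3.58.1), in 1 quasi-likelihood fit over all 4 groups with TMM scaling (factors 0.975 to 1.03, common biological variation 7.66%, prior degrees of freedom 4.73). Calls have a Benjamini-Hochberg adjusted p under 0.05 over all 15806 tested genes. The SE of a log2 difference is its size divided by the square root of the F statistic. Exact 95% intervals of read ratios cover counting error only. Exon lengths are from GENCODE 29. Alternatives were RLE scaling, DESeq2 1.42.0, other filters, a replicate block, the compared groups alone and each library left out. The scripts were tested on simulated data.

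The members and lists were chosen with earlier results of these data known. Tested members are described by role. From each further list of astrocyte, oligodendrocyte, neuron, microglia, fibroblast, endothelial or carcinoma markers, genes at 0 in every library and, per comparison, up to 4 with the smallest p could be named, and of these the called ones are given. TMEM119 in the control coculture falls outside that rule and was named after its values were seen. AXL, given for its level in control cells alone, also falls outside it. GJA1 was named as the target. The lists support no direction on their own.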

Additional observations from a re-analysis of the deposited data

How the results depend on the processing

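The 24 tested markers gave 28 calls in the comparisons among control cells alone, the control coculture and both hairpins together or against each other. Of these, 17 held under all 14 alternative settings and 0 reversed, with 52 of 390 values losing a call. Markers called lower in the depleted against the control cocultures numbered 8, 5 with the replicate block and 5 to 8 with 1 library left out. Markers called higher in the control coculture numbered 11, and 8 to 13 with 1 library left out. In depleted cocultures against control cells alone, leaving out 1 library gave 4 to 9 higher (8 with all) and 0 to 1 lower (1 with all). For hairpin 1 against the control coculture, the 8 lower became 4 with the replicate block, 3 with only the compared groups and 3 to 7 with 1 library left out, and the 1 higher became 0 with DESeq2, with the replicate block and with only the compared groups, and 0 to 1 with 1 library left out. For hairpin 2 the 5 lower became 1 to 7 with 1 library left out. Hairpin 2 against hairpin 1 gave 0 lower, and 1 with DESeq2 and 1 without the filter. Over all genes that comparison had 4 higher and 1 lower calls with edgeR, 13 and 9 with DESeq2, and 278 and 26 without the filter. The cause of these changes was not tested. Replicate numbers did not pair the libraries in the same direction across groups, so the replicate block is no better design here. Correlations of deviations ran from -0.64 (control coculture with hairpin 1) to 0.38 (control alone with control coculture). The hairpin groups with each other were at 0.26, and every pair of a control and a hairpin group was negative (-0.64 to -0.09). Deviations were thus correlated between groups, while the fit treated the libraries as independent. The source of these correlations was not tested. Markers under 10 reads on average are limited by depth.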

Other observations

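Markers of cell types other than glia and neurons were counted in the same libraries. Of 14 fibroblast and pericyte markers 12 were tested. In the control coculture against control cells alone, the growth factor receptor PDGFRB (0.84, adjusted p = 0.0018) and the matrix protein FBLN1 (0.29, adjusted p = 0.0454) were called higher and the actin-binding protein TAGLN lower (-0.40, adjusted p = 0.0159), beside 8.74% and 2.93% of all tested genes. The FBLN1 call ended without any single library of those groups or of hairpin 2 (adjusted p = 0.0899 to 0.26), and that of TAGLN without either library of control cells alone or control coculture library 1 (adjusted p = 0.0822 to 0.119). With the Cx43 hairpins 6 of the 12 were lower than in the control coculture, beside 5.85% of all: by smallest p, FBLN1 (-0.50, adjusted p = 0.0031), the collagen COL1A1 (-0.74, adjusted p = 0.0241), the smooth muscle actin ACTA2 (-0.44, adjusted p = 0.0241) and the surface protein THY1 (-0.26, adjusted p = 0.0337) were the first 4. COL1A1 was at 832 and 517 CPM in control cells alone, 654 and 602 CPM in control cocultures, 336 and 402 CPM with hairpin 1 and 390.0 and 378 CPM with hairpin 2. Its call ended without either control coculture library or either hairpin 2 library (-0.79 to -0.68, adjusted p = 0.082 to 0.117). The ACTA2 call ended without the same libraries (adjusted p = 0.075 to 0.172), and that of THY1 also without either library of cells alone (adjusted p = 0.0545 to 0.215). Against control cells alone, 7 of the 12 were lower in the depleted cocultures and 1 was higher, beside 6.34% and 10.8% of all. TAGLN (-0.65, adjusted p = 0.000848), THY1 (-0.50, adjusted p = 0.00146), PDGFRB (0.74, adjusted p = 0.00248) and the collagen COL1A2 (-1.07, adjusted p = 0.0041) had the smallest p and kept these calls without each library.

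Of 9 endothelial markers 8 were matched and 5 tested, and the receptor KDR was called higher in the control coculture, beside 8.74% of all (0.45, adjusted p = 0.048). The test no longer passed without library 2 of control cells alone or any library of the control coculture or hairpin 2 (adjusted p = 0.0949 to 0.22). No endothelial marker was called in the depleted cocultures, by edgeR or DESeq2, against the control coculture or control cells alone. Of all tested genes, 3.37% were higher and 5.85% lower in the first of these comparisons, and 10.8% and 6.34% in the second. At an unadjusted p under 0.05 there were 0 higher and 1 lower in the first, and 1 higher and 0 lower in the second.

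Of the 12 carcinoma line markers 3 were called higher in the control coculture, the protease PLAU (0.49, adjusted p = 0.00116) and the keratins KRT7 (0.64, adjusted p = 0.00138) and KRT8 (0.45, adjusted p = 0.00387), and the adhesion protein EPCAM was called lower (-0.46, adjusted p = 0.0321), beside 8.74% and 2.93% of all tested genes. The EPCAM call ended without library 2 of control cells alone or any library of the control coculture or hairpin 2 (adjusted p = 0.0707 to 0.181). With the hairpins 4 of the 12 were lower than in the control coculture, beside 5.85% of all, led by the keratin KRT19 (-0.83, adjusted p = 2.89e-05), at 70.1 and 71.8 CPM in control cocultures and 38.9 to 41.1 CPM in the depleted ones. The others were KRT8 (-0.44, adjusted p = 0.00323), KRT18 (-0.25, adjusted p = 0.0296) and the integrin ITGB4 (-0.60, adjusted p = 0.0365). The calls of KRT18 (adjusted p = 0.0511 to 0.168) and ITGB4 (adjusted p = 0.0782 to 0.196) ended without either control coculture library or either hairpin 2 library, and that of KRT18 also without library 1 of cells alone. Against control cells alone, KRT7 (0.74, adjusted p = 0.000543) and PLAU (0.52, adjusted p = 0.000727) were higher in the depleted cocultures, beside 10.8% of all, and KRT19 (-0.77, adjusted p = 0.00011) and EPCAM (-0.43, adjusted p = 0.0186) lower, beside 6.34%. This EPCAM call ended without library 2 of cells alone or either hairpin 2 library (adjusted p = 0.0608 to 0.157).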
